A study of Homo sapiens with 6 samples.

Results

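The genes described here are 38 genes of the unfolded protein response and of protein folding in the endoplasmic reticulum (ER), taken as a named list and matched to the arrays by gene symbol. The list and its roles were chosen with earlier results of these data known. All 38 genes were measured, by 133 probe sets, among 18132 genes in all. They comprise 8 stress sensors and transcription factors, 12 chaperones and co-chaperones, 8 oxidoreductases and 10 genes of ER-associated degradation. The arrays came from cells labelled TPC-1, a human papillary thyroid carcinoma line grown in RPMI1640 with fetal bovine serum. A lentivirus carried either a control shRNA (3 arrays) or an shRNA against FAM60A (3 arrays), the older name of SINHCAF, a subunit of the SIN3 histone deacetylase complex. The labels call the 3 samples of a group independent without saying that they were separate cultures. The p-values therefore measure only the spread between these samples, which may be technical, and precision is limited by how few arrays there are.

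The labels did not match the targeted gene. SINHCAF stood at -0.58, -0.66 and -0.68 in the arrays labelled control shRNA and at 0.63, 0.57 and 0.60 in the arrays labelled FAM60A shRNA, on a log2 scale relative to the median of the 6 arrays. It was thus 2.36-fold higher under the label that should lower it (adjusted p = 1.08e-06), and both groups are named by their label throughout. One label field, on how RNA was extracted, speaks of DLD1 cells (a colorectal cancer line) and all others of TPC-1. The values are centred per probe set, and their level is known only as a class on the log2 scale, bright (8 or more), middle (4 to 8) or dim (2 to 4). Of 10 thyroid markers measured, DIO1 alone had a bright probe set, and DIO2 and TSHR had dim ones only. Of 12 intestinal markers, CDX2, CDH17 and KRT20 had a bright probe set, and LGALS4, MUC2, PHGR1 and VIL1 had dim ones only. Summed over the intestinal markers, the log2 values ran from -4.09 to -3.88 in the control label and from 3.70 to 3.97 in the FAM60A label, with 8 that rose and 1 that fell. Summed over the thyroid markers they ran from 0.39 to 0.57 and from -0.63 to -0.53, with 0 that rose and 1 that fell. That 1 gene is HHEX (-0.97), and the median difference of the thyroid list was -0.0023. The median of the intestinal list was 0.19. The largest intestinal differences were those of ASCL2 (2.20), LGR5 (1.995), KRT20 (1.20), CDX2 (0.999) and CDH17 (0.82), and the others lay between -0.22 and 0.21. The part of these shifts in the results that follow was not tested.

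When unfolded proteins accumulate in the ER, membrane sensors respond: IRE1 (ERN1), PERK (EIF2AK3) and ATF6. IRE1 splices XBP1 messenger RNA so that it encodes an active transcription factor, PERK phosphorylates eIF2 alpha and slows translation, and ATF6 moves to the Golgi, where the site-1 and site-2 proteases (MBTPS1 and MBTPS2) release its transcription factor domain. Together they raise chaperones, disulfide-forming enzymes and the machinery that returns misfolded proteins to the cytosol for the proteasome. Many of the targets carry an ER stress response element, where NF-Y and ATF6 or XBP1 bind. The arrays measured total transcript of each gene, and the splicing of XBP1, the phosphorylation of PERK and the cleavage of ATF6 lie outside what they measure.

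Of the chaperones 8 of 12 and of the oxidoreductases 5 of 8 were higher in the arrays labelled FAM60A shRNA, led by HYOU1 (2.06-fold) and HSPA5 (1.99-fold). Of 10 genes of ER-associated degradation, 5 were lower, 4 did not pass and HERPUD1 was 1.69-fold higher. The sensor arm was divided, with XBP1 1.75-fold and EIF2AK3 1.49-fold higher, and MBTPS2 1.78-fold lower. A gene is said to have risen or fallen where it was higher or lower in the FAM60A label at an adjusted p under 0.05 (limma, Benjamini-Hochberg over all genes). By that test 19.8% of all genes rose and 25.0% fell, and among genes with a bright probe set 28.7% and 38.4%.

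Of the 38 genes, 16 rose, 12 fell and 10 did not pass, so that 28 (73.7%) passed the test. Across all genes 44.9% passed, 19.8% higher and 25.0% lower. Among all genes with a bright probe set, 67.1% passed, and of the 32 ER genes that have one, 24 (75%) did, so at matched level the share of calls was near the background. Of all genes with a bright probe set, 28.7% rose and 38.4% fell. Of the ER genes with one, 7 of 11 chaperones and 5 of 7 oxidoreductases rose, and 5 of 9 genes of ER-associated degradation fell. The difference of these shares from that background was not tested. The groups of 3 arrays did not overlap in 30 of the 38 genes (78.9%), and in 53.2% of all genes. The median log2 difference of the group was 0.064 against -0.012 over all genes. By role, the median was 0.22 for chaperones, 0.25 for oxidoreductases, 0.041 for sensors and -0.11 for ER-associated degradation. A rise of at least 1.5-fold was reached by 4 genes (10.5%; 4.14% of all genes), HYOU1, HSPA5, XBP1 and HERPUD1. A fall of that size was reached by MBTPS2 and ERO1B (5.26%; 2.82% of all genes). HYOU1 was the 1 member at 2-fold or more, a size reached upward by 1.20% of all genes. The shares for overlap and for fold size are over all genes, dim ones included, and were not taken at matched level.

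**Figure D1:**
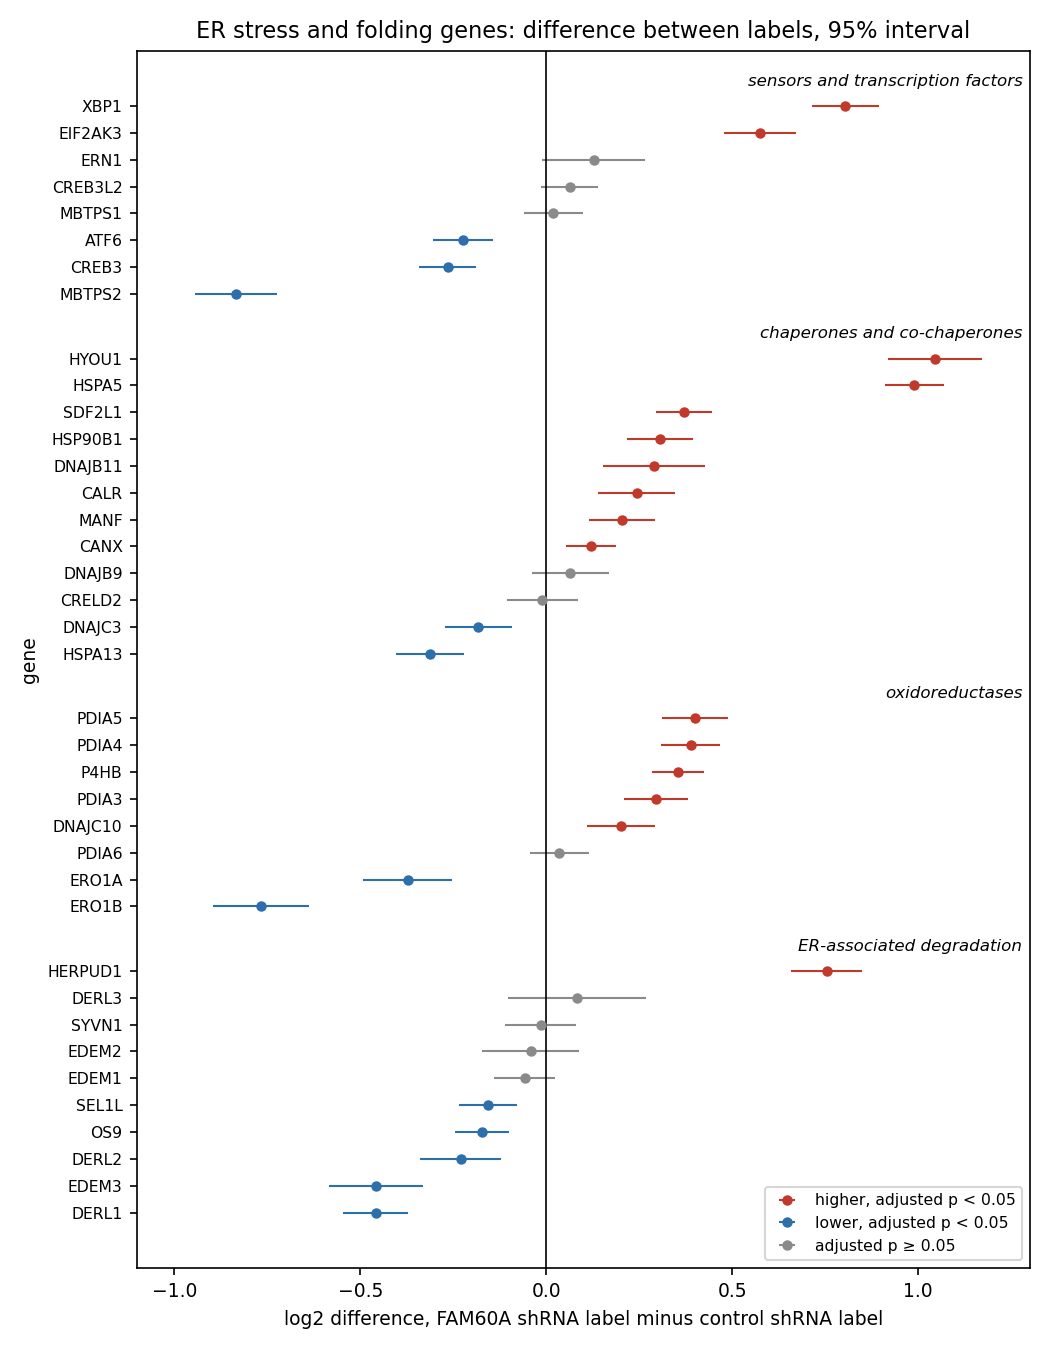
Log2 difference (FAM60A shRNA label minus control shRNA label, x axis) of each of the 38 genes, grouped by role, with the 95% confidence interval of the limma fit on 3 arrays per label. HYOU1 and HSPA5 lie near 1, MBTPS2 (-0.84) and ERO1B (-0.77) lie farthest below 0, and 10 genes in grey did not pass the test.

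The 4 genes with the largest rise all carry an ER stress response element close to their start. RefSeq promoter windows (GRCh38.p14, 250 bases before to 50 after the transcription start) were found for 35 of the 38 genes and searched on both strands. There were 35116 windows for 27305 genes, so a gene can have more than 1 start. Which start these cells use was not tested. ERSE was searched as CCAAT and CCACG with 9 bases of any kind between, and ERSE-II as ATTGG and CCACG with 1 base between. The CCACG ends are alike and ATTGG is CCAAT read on the other strand. Only exact matches were counted, and no gene of the group holds an exact match of both elements. Variants that differ by a base were not searched, so a gene counted with neither element may still hold one. ERSE was found in 8 of the 35 genes and in 0.0916% of the 27305 genes with a window. ERSE-II was found in 3 of the 35 and in 0.0696%. The group is a list of genes of this response, and many of its targets are known to carry such an element. The higher shares in the group therefore follow from how the list was made and are no result of these arrays. The upstream 250 bases are shown for the 4 genes with the largest rise and for ERO1B, the 1 gene with an element that fell, with the fixed bases of each element in capitals on the strand of the gene (CGTGG is CCACG and ATTGG is CCAAT on the opposite strand).
HYOU1 (chr11:119057206-119057455, minus strand): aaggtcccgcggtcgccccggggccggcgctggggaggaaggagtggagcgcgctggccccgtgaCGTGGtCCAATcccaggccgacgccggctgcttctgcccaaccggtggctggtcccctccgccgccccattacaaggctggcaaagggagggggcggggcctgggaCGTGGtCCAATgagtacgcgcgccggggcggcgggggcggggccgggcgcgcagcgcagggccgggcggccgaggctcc
HSPA5 (chr9:125241344-125241593, minus strand): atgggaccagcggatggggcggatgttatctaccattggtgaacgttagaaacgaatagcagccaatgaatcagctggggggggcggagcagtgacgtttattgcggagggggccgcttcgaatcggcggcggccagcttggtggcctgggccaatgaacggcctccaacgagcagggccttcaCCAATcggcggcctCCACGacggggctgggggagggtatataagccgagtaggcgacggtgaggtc
XBP1 (chr22:28800570-28800819, minus strand): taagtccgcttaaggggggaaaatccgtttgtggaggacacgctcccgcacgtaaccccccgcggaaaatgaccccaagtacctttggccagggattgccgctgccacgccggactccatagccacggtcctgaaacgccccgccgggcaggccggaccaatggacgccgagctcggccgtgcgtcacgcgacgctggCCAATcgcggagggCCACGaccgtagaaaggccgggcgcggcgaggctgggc
HERPUD1 (chr16:56931892-56932141, plus strand): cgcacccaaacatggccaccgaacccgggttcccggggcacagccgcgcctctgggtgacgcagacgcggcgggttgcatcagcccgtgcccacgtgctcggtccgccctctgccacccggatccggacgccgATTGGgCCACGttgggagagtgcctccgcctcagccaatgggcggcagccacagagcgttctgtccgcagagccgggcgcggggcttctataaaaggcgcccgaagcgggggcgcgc
ERO1B (chr1:236281959-236282208, minus strand): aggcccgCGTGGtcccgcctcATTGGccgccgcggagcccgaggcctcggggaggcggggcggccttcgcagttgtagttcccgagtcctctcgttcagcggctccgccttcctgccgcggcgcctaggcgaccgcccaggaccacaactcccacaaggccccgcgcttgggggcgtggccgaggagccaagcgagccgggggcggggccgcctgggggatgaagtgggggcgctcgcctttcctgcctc

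The matches of all 11 genes are aligned here from their CCAAT or ATTGG end, with the fixed bases in capitals, to show the spacers that differ between them. HSP90B1 holds 2 ERSE matches and HYOU1 holds 2 identical ERSE-II matches.
HSPA5 ERSE: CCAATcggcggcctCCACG
XBP1 ERSE: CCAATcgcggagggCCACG
HSP90B1 ERSE, far: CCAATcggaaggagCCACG
HSP90B1 ERSE, near: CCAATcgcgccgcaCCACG
CALR ERSE: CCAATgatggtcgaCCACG
CANX ERSE: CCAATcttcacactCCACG
PDIA6 ERSE: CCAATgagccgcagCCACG
CRELD2 ERSE: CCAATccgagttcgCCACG
ERO1B ERSE: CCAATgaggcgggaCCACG
HYOU1 ERSE-II: ATTGGaCCACG
HERPUD1 ERSE-II: ATTGGgCCACG
SDF2L1 ERSE-II: ATTGGtCCACG

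Of the 11 genes with either element, 8 rose, 1 fell and 2 did not pass, with a median log2 difference of 0.31 and a range from -0.77 to 1.04. Of the 24 genes with a window and no exact match of either element, 7 rose, 10 fell and 7 did not pass. Their median was -0.029, with a range from -0.84 to 0.57. Most genes with an element are chaperones, the role that mostly rose. HERPUD1 is the only one of ER-associated degradation, the role that mostly fell. Element and role thus overlap, and the difference between these counts was not tested. Counted to the transcription start from the nearer end of each match, HSPA5 has its match at -48 and XBP1 at -34. HERPUD1 has it at -107, and HYOU1 at -175 and -69. The match of ERO1B, at -225, lies farthest out of all 13. CALR (-207), SDF2L1 (-178), HSP90B1 (-176 and -71) and CANX (-133) rose, so far matches also stood beside rises. PDIA6 (-68) and CRELD2 (-62) did not pass the test. In PDIA6 a near match was thus not beside a rise, while CRELD2 rose with dim probe sets left out (0.18, adjusted p = 0.0017). The matches of PDIA6 and CANX lie before a start inside the gene and not before its outermost start. Outside the group, 23 other measured genes have ERSE or ERSE-II in their window, and 3 of them rose and 8 fell. That is 47.8% called, against 46.4% of the 14367 other genes with a window and neither element, of which 2877 rose and 3783 fell. Among the 8, SERP1, a protein of the ER translocation site, fell by 0.58 and FICD, which attaches AMP to the chaperone HSPA5, fell by 0.72 on the log2 scale (both chosen here after their values were seen). A match is a string of letters and was not tested for binding.

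**Figure D2:**
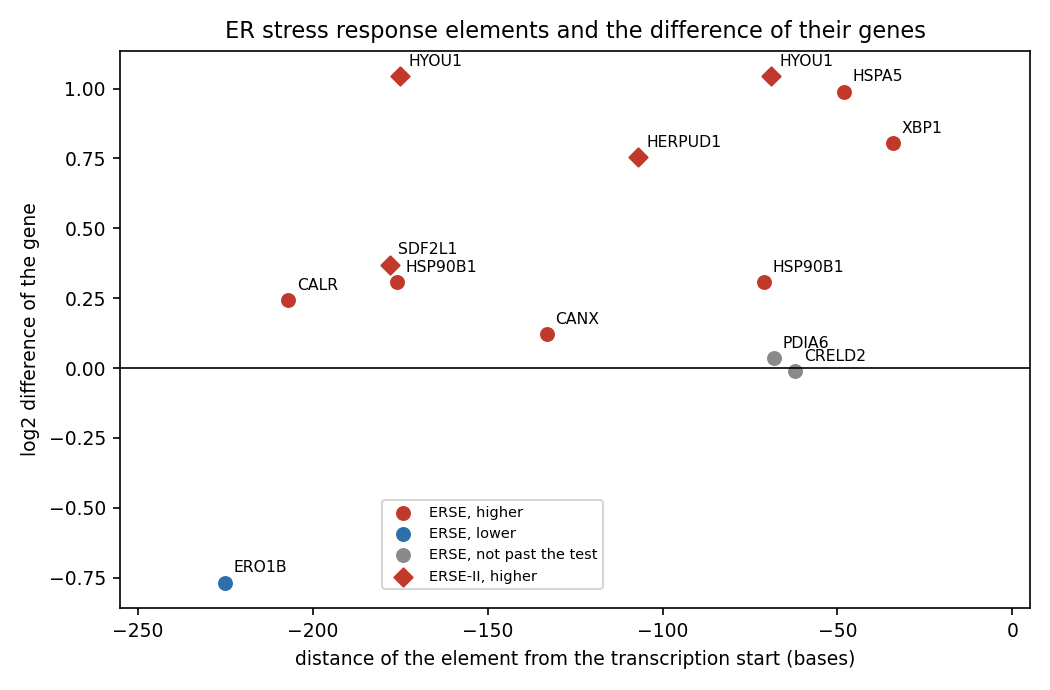
Position of each ERSE (circle) or ERSE-II (diamond) match before the transcription start (x axis, bases) and the log2 difference of its gene (y axis), with colour for the test result. All of the matches with a gene above 0.5 belong to HYOU1, HSPA5, XBP1 and HERPUD1, and ERO1B at -0.77 has the most distant match.

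A pair of further elements was searched in the same windows. The XBP1-binding UPRE, TGACGTGG, was found in DNAJC10 and HYOU1 and in 0.927% of all genes with a window, and in HYOU1 it overlaps the far ERSE-II match. The C/EBP-ATF element TGATGCAA, to which ATF4 binds, was found in HERPUD1 alone of the group and in 1.08% of all genes.

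Among the chaperones, 8 of 12 rose (66.7%), 2 fell and 2 did not pass, while 28.7% of all genes with a bright probe set rose. HSPA5 encodes BiP, the ER Hsp70 that holds unfolded chains and keeps the sensors inactive. HSPA5 stood at -0.47, -0.55 and -0.50 in the control label and at 0.48, 0.47 and 0.49 in the FAM60A label. The groups were far apart for their spread, and the log2 difference was 0.99 (SE 0.033, adjusted p = 1.49e-06), with a 95% interval of 0.91 to 1.07. HYOU1, an Hsp110-type chaperone that exchanges nucleotide on BiP, stood at -0.46, -0.63 and -0.49 against 0.58, 0.47 and 0.51. Its log2 difference was 1.04 (SE 0.053, adjusted p = 6.92e-06), with a 95% interval of 0.92 to 1.17. In absolute size the difference of HSPA5 exceeded that of 98.4% of all genes and that of HYOU1 98.7%. Of all the chaperones, this pair alone lies near 2-fold.

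The other chaperones that rose did so by 1.09-fold to 1.29-fold. SDF2L1, a BiP cofactor that works with ER J-proteins, stood at -0.17, -0.17 and -0.21 against 0.19, 0.17 and 0.21, a log2 difference of 0.37 (SE 0.0315, adjusted p = 6.77e-05). HSP90B1, the ER Hsp90 known as GRP94, stood at -0.11, -0.20 and -0.20 against 0.16, 0.14 and 0.12, a log2 difference of 0.31 (SE 0.0375, adjusted p = 4.10e-04). Neither gene had overlapping groups. The 95% interval of HSP90B1, 0.22 to 0.39, lies below that of HSPA5, and both genes hold ERSE. The J-protein DNAJB11 (0.29), the lectin chaperones CALR (0.24) and CANX (0.12) and the secreted stress factor MANF (0.20) also rose. Of the 9 probe sets of CANX, 6 rose, 1 fell (-0.17) and 2 did not pass. CANX lost its call without probe sets named x_at or s_at, which can match several transcripts (0.053, adjusted p = 0.26).

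A pair of chaperone genes fell. HSPA13, a microsomal Hsp70 with no peptide-binding domain of the usual kind, stood at 0.16, 0.14 and 0.15 against -0.10, -0.18 and -0.22, a log2 difference of -0.31 (SE 0.038, adjusted p = 4.22e-04). DNAJC3, known as p58IPK, a J-protein of the ER lumen, stood at 0.080, 0.093 and 0.087 against -0.043, -0.16 and -0.083, a difference of -0.18 (SE 0.038, adjusted p = 0.0062). In both genes the control values lay close together and the FAM60A values were more spread, without overlap. The fall was seen in 3 of 4 probe sets of HSPA13 and in 1 of 3 of DNAJC3. The J-protein DNAJB9 (0.064) and CRELD2 (-0.011), an ER stress-induced folding factor, did not pass. The probe sets of CRELD2 went apart, at 0.18 for the bright one, which rose, and -0.20 for the dim one, which did not pass, and with dim probe sets left out the gene rose (0.18, adjusted p = 0.0017).

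Among the oxidoreductases, 5 of 8 rose (62.5%), 2 fell and 1 did not pass, while 28.7% of all genes with a bright probe set rose. The protein disulfide isomerases form and reshuffle disulfide bonds in folding chains. P4HB, the founding member, stood at -0.16, -0.18 and -0.18 against 0.19, 0.19 and 0.16, a log2 difference of 0.35 (SE 0.029, adjusted p = 6.06e-05), and all 6 of its probe sets rose. PDIA4 stood at -0.16, -0.19 and -0.20 against 0.24, 0.21 and 0.16, a difference of 0.39 (SE 0.033, adjusted p = 7.26e-05). PDIA5 stood at -0.22, -0.16 and -0.23 against 0.19, 0.16 and 0.25, a difference of 0.40 (SE 0.0375, adjusted p = 1.10e-04). The groups of these isomerases did not overlap, and their 95% intervals overlap one another, so their order is not resolved.

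PDIA3, the isomerase that works with calnexin and calreticulin, had a log2 difference of 0.30, and DNAJC10, known as ERdj5, a J-protein with reductase activity, had 0.20. Both rose. The rise of PDIA3 rests on 1 of its 2 probe sets (0.50 against 0.091), and it did not pass without the x_at and s_at probe sets (adjusted p = 0.25). PDIA6, another isomerase, had a difference of 0.035, with a 95% interval of -0.044 to 0.11, and did not pass in any of its 3 probe sets.

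The ERO1 oxidases, which pass oxidising equivalents to the disulfide isomerases, went the other way. ERO1B stood at 0.48, 0.29 and 0.34 in the control label and at -0.39, -0.35 and -0.44 in the FAM60A label. The groups were wide apart, with a log2 difference of -0.77 (SE 0.054, adjusted p = 2.90e-05), a 1.70-fold lower signal. Of its 4 probe sets, 3 fell, by 0.65 to 1.16, and the dim one did not pass (-0.22). ERO1A stood at 0.22, 0.13 and 0.18 against -0.11, -0.28 and -0.19, a difference of -0.37 (SE 0.051, adjusted p = 6.96e-04). This is the mean of a probe set that fell by 0.75 and a brighter one at 4e-04 that did not pass, so the fall of ERO1A depends on which probe set is read.

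**Figure D3:**
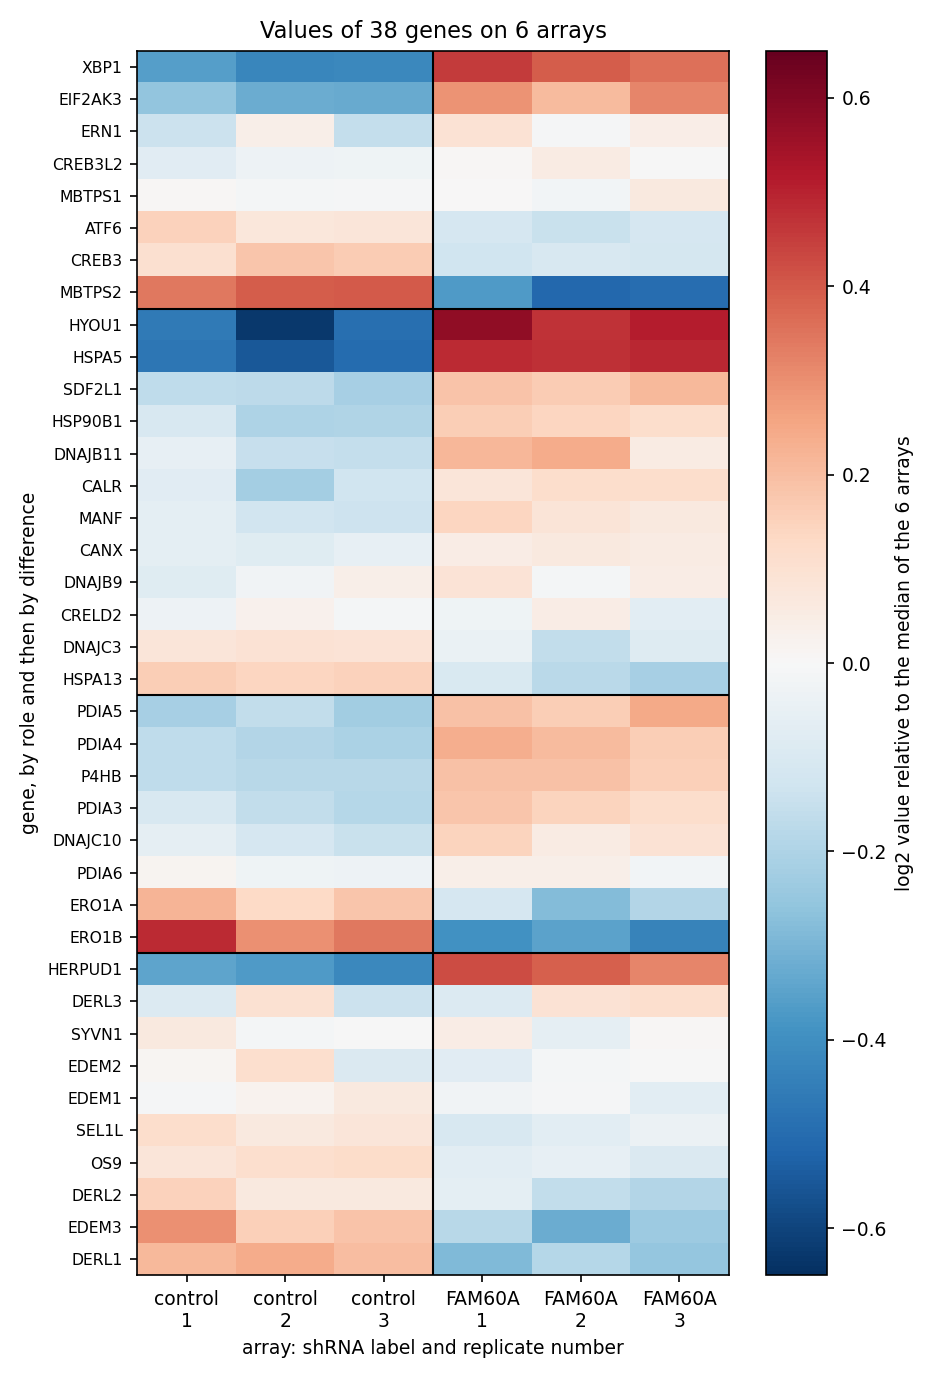
Log2 value of each gene relative to the median of the 6 arrays (colour) in each array (columns, control shRNA label left and FAM60A shRNA label right), with genes in rows by role. HYOU1, HSPA5, XBP1 and HERPUD1 turn from blue to red between the labels in all 6 arrays, and MBTPS2 and ERO1B turn from red to blue.

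The sensors and transcription factors split, with 2 of 8 that rose (25%), 3 that fell (37.5%) and 3 that did not pass. Over all genes 19.8% rose and 25.0% fell, and among those with a bright probe set 28.7% and 38.4%. XBP1 stood at -0.36, -0.42 and -0.42 against 0.45, 0.39 and 0.36, a log2 difference of 0.80 (SE 0.038, adjusted p = 5.10e-06), from 1 probe set that does not tell the spliced form from the unspliced. EIF2AK3, which encodes the kinase PERK, stood at -0.26, -0.32 and -0.33 against 0.29, 0.21 and 0.32, a difference of 0.57 (SE 0.041, adjusted p = 3.04e-05). All 3 of its probe sets rose, by 0.46 to 0.69. Neither gene had overlapping groups. ERN1, the IRE1 gene, had a difference of 0.13 with overlapping groups and did not pass (adjusted p = 0.13). Without replicate 2 of the control label its difference was 0.19 and it passed (adjusted p = 0.014).

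The genes of this role that fell were MBTPS2, CREB3 and ATF6. MBTPS2, the site-2 protease that cuts ATF6 within the membrane, stood at 0.34, 0.39 and 0.40 against -0.37, -0.51 and -0.50, a log2 difference of -0.84 (SE 0.0465, adjusted p = 9.77e-06). Both of its probe sets fell, by 1.20 and 0.47. CREB3, a transcription factor freed from the membrane by the same proteases, stood at 0.11, 0.18 and 0.16 against -0.13, -0.11 and -0.11, a difference of -0.27 (SE 0.033, adjusted p = 4.18e-04). ATF6 itself had -0.22, and all 3 of its probe sets fell. MBTPS1, the site-1 protease (0.019), and CREB3L2, a relative of CREB3 (0.063), did not pass. Of the 7 probe sets of CREB3L2, 1 rose by 0.57, the only bright one, and the other 6 lay between -0.077 and 0.042 and did not pass. Without the dim probe sets CREB3L2 passed (0.11, adjusted p = 0.042).

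In ER-associated degradation 5 of 10 genes fell (50%), 1 rose and 4 did not pass. Beside this, 38.4% of all genes with a bright probe set fell, and the difference was not tested. HERPUD1, a membrane protein that organises the HRD1 ubiquitin ligase complex, was the one that rose. HERPUD1 stood at -0.35, -0.37 and -0.42 against 0.42, 0.39 and 0.32, a log2 difference of 0.75 (SE 0.040, adjusted p = 8.35e-06). All 4 of its probe sets rose, by 0.82 to 0.96 in the bright ones and by 0.33 in the dim one. No other gene of this role rose, and the next highest, DERL3, had 0.083 with overlapping groups and did not pass.

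The derlins DERL1 and DERL2, multispanning proteins of the retrotranslocation channel, fell. DERL1 stood at 0.21, 0.24 and 0.20 against -0.29, -0.19 and -0.25, a log2 difference of -0.46 (SE 0.037, adjusted p = 5.13e-05), and all 3 of its probe sets fell. EDEM3, a mannosidase-like protein that marks misfolded glycoproteins, stood at 0.30, 0.15 and 0.19 against -0.18, -0.32 and -0.24, a difference of -0.46 (SE 0.054, adjusted p = 3.29e-04). Its 3 brighter probe sets fell by 0.58 to 0.77, while the 2 dim ones stood at -0.27 and 0.015 and did not pass. OS9, the lectin that reads the trimmed glycan, stood at 0.076, 0.11 and 0.12 against -0.067, -0.056 and -0.093, a difference of -0.17 (SE 0.031, adjusted p = 0.0026), and 4 of its 6 probe sets fell. In none of these 3 genes did the groups overlap. SEL1L, the scaffold of the HRD1 complex (-0.16), and DERL2 (-0.23) also fell. Of the 4 probe sets of SEL1L, 2 fell and 2 did not pass. The ligase SYVN1 itself, known as HRD1 (-0.015), and the mannosidase-like EDEM1 (-0.058) and EDEM2 (-0.042) did not pass. Without its dim probe set EDEM2 passed (-0.15, adjusted p = 0.0098), and with its bright probe set alone EDEM1 passed (-0.16, adjusted p = 0.021).

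**Figure D4:**
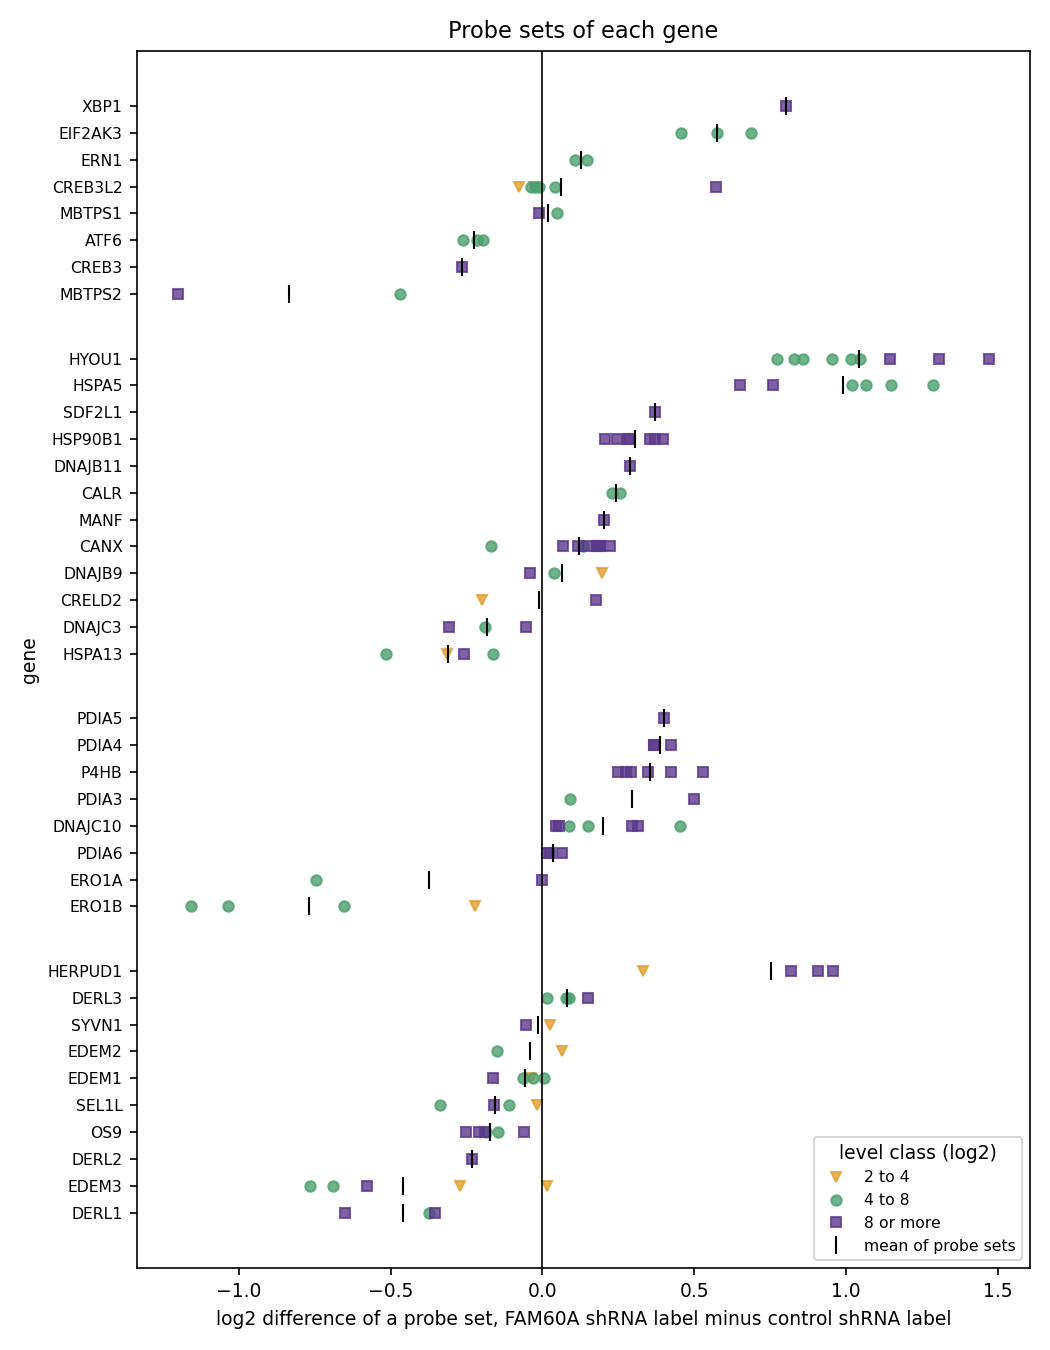
Log2 difference of each of the 133 probe sets (x axis) by gene, with shape and colour for the level class of the probe set and a bar for the gene's mean. All 9 probe sets of HYOU1 and all 6 of HSPA5 lie above 0.6, those of ERO1A lie at -0.75 and 0, and 1 of 7 of CREB3L2 stands apart from the rest.

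Of the 133 probe sets, 58 rose, 29 fell and 46 did not pass in the fit over probe sets, where 18.1% of all probe sets rose and 22.7% fell. The 9 probe sets of HYOU1 rose by 0.77 to 1.47, the 6 of HSPA5 by 0.65 to 1.29 and the 7 of HSP90B1 by 0.21 to 0.40. In HSPA5 the bright probe sets showed the smaller rises (0.76 and 0.65), and in HYOU1 they showed the larger (1.15 to 1.47). Dim probe sets made up 9.77% of those of the group, against 25.9% of those with a named gene.

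A list of other genes of the pathway was read beside the group, of which 55 were measured. It too was chosen with earlier results of these data known, so it is no independent check of the group. Of these, 16 rose (29.1%) and 24 fell (43.6%). Over all genes 19.8% rose and 25.0% fell, and of all genes with a bright probe set 28.7% and 38.4%. A bright probe set is present in 40 of the 55, and the difference from these shares was not tested. Of 8 genes of PERK and ATF4 output, 5 rose and 3 fell. CHAC1, which degrades glutathione (0.81), the pseudokinase TRIB3 (0.77) and DDIT3, the transcription factor CHOP (0.61), rose most. The genes that fell were PPP1R15B (-0.82) and PPP1R15A (-0.45), which direct the phosphatase of eIF2 alpha, and EIF2S1 (-0.78), which encodes eIF2 alpha. Of 5 relatives of the sensors and genes that act with them, WFS1 (0.35), an ER membrane protein, and ERN2 (0.21), an epithelial IRE1, rose and 0 fell.

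Other folding genes went both ways, with 7 of 23 that rose (30.4%) and 8 that fell (34.8%). These shares are near those of all genes with a bright probe set (28.7% and 38.4%). The largest rises were those of the thioredoxin-like TMX4 (1.41), the retention factor ERP44 (0.998) and CNPY3 (0.85), a co-chaperone of GRP94. The largest falls were those of CLGN (-0.77), a calnexin relative, the thioredoxin-like TMX3 (-0.75) and SERP1 (-0.58). Of 19 other genes of ER-associated degradation 13 fell (68.4%) and 2 rose (10.5%), and the difference from that background was not tested. FAM8A1, a partner of HRD1 (-0.71), and UFD1 (-0.59) and NPLOC4 (-0.48), cofactors of the p97 ATPase, fell most. The ubiquitin-conjugating enzymes UBE2J1 (0.41) and UBE2G2 (0.41) rose. VCP, the p97 ATPase itself, had -0.032 and did not pass.

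**Figure D5:**
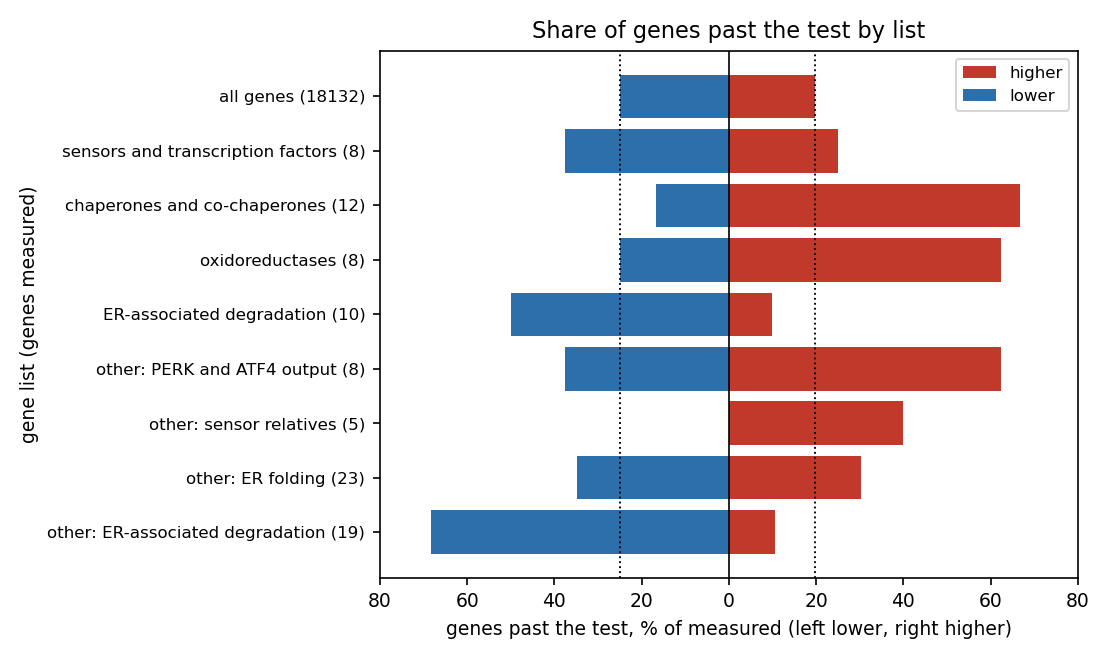
Share of genes that passed the test in each list (x axis, % of genes measured, lower to the left and higher to the right of 0), with the shares over all genes as dotted lines at 25.0% and 19.8%. Rises reach 66.7% among chaperones and 62.5% among oxidoreductases, and falls reach 50% and 68.4% in the lists of ER-associated degradation. Among all genes with a bright probe set the shares were higher than the dotted lines, 28.7% that rose and 38.4% that fell.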

How the data were processed

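Gene expression was measured on Affymetrix arrays, 1 for each of 6 RNA samples. The authors made the deposited log2 values with RMA, per the submitters' processing notes, which name no program version. None of the 49395 probe sets had a missing value. Each had a median of 0 over the 6 arrays to within 5e-07, so the values are differences between arrays. Base 2 was assumed for the logarithm, as is usual for RMA.

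Probe sets with 1 gene symbol in the platform annotation (44994; 1832 had several and 2569 none) were averaged by gene, without 102 control probe sets. The groups, taken from the sample titles, were fitted in limma (version 3.58.1, R 4.3.3; lmFit, eBayes), with Benjamini-Hochberg adjustment over 18132 genes and a threshold of 0.05. Differences are FAM60A label minus control label, with n of 3 per label throughout. An exact two-sided permutation test of SINHCAF returned p = 0.1, which is the lowest value possible with 3 arrays in each group. The fit was tested on simulated data.

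Level classes came from the single-precision rounding step that can be seen in each probe set. Those of 16 or more (775) were counted with the bright class, and 83 were unresolved. In simulated probe sets the class was recovered in 98.9% for 2 to 4, 98.0% for 4 to 8 and 98.5% for 8 to 16. The simulated levels kept clear of the class limits and none was 16 or more, so these shares may be too high for the arrays. Errors near a class limit were not measured. The class of a single probe set can therefore be wrong, and the shares given for bright genes rest on these classes.

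The genes, their roles and the other lists were chosen with earlier results of these data known. For each role the 4 genes of smallest p and each called gene against the majority direction are given by array. In other lists the 3 largest differences each way that passed are named. All other genes are given by their difference. Promoters were matched by symbol. Alternatives were another normalization, other rules for probe sets and level, a robust variance, a replicate block and leaving out each array.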

Additional observations from a re-analysis of the deposited data

How the results depend on the processing

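Across 15 other settings, 25 of the 28 genes that passed kept their call and direction in each setting that measured them. The exceptions were CANX and PDIA3 without x_at and s_at probe sets (0.053 and 0.091) and ERO1A with bright probe sets only (4e-04), a setting chosen after seeing the data. With bright probe sets only, the test ran on fewer genes and called 4962 (2217 higher, 2745 lower). There 0 oxidoreductases fell, since ERO1B has no such probe set, and the medians were 0.15 for the group, 0.35 for oxidoreductases, -0.0095 for sensors and -0.16 for ER-associated degradation. The group's median was 0.088 after cyclic loess, 0.13 with the probe set of largest variance, 0.041 with the median probe set and 0.096 without dim probe sets. That of ER-associated degradation was -0.089 after quantile normalization, then -0.082, -0.20, -0.094 and -0.16 in the same order, and from -0.13 to -0.10 with 1 array left out. The sensors' median was 0.066 after cyclic loess, 0.077 with the largest variance and -0.0078 without x_at and s_at probe sets. In that last setting oxidoreductases had 0.14 and 10 other pathway genes rose, and with the largest variance oxidoreductases had 0.41. The cause of these shifts was not tested.

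Genes that did not pass changed sign in places. CRELD2 had 0.0049 after quantile normalization, 0.012 after loess, 0.18 without dim probe sets or with bright ones only, and -0.043 to 0.0155 with 1 array left out. SYVN1 had 0.0056, 0.012 and 0.024 (quantile, loess, largest variance) and -0.039 to 0.013 with 1 array left out. EDEM2 had 0.065 with the largest variance and -0.094 to 0.0078 with 1 array left out. MBTPS1 had -0.0095 with bright probe sets and -0.0042 to 0.036 with 1 array left out. CREB3L2 had -0.035 without x_at and s_at, and DNAJB9 had -0.0017 without dim probe sets and -0.041 with bright ones only. The median of all genes was 0.0058 and 0.014 under quantile and loess.

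Same-numbered arrays correlated in their deviations from the group means at 0.16, 0.059 and 0.078, so the numbers were not taken to pair the samples. Each array did correlate best with its own number, a hint from the data and not from the design. With a replicate block 16 of the 38 genes rose and 12 fell, as without it, and 8170 of all genes passed against 8136.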
